A study of Homo sapiens with 3 samples.

Results

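The 78 genes described here encode the proteins of the mitochondrial ribosome, in cells labelled KG1, an established human acute myeloid leukaemia line. They were chosen by symbol alone, as every gene named MRPL or MRPS followed by a number and at most 1 letter from A to C, and they make up 78 of the 61806 genes in the deposited table, with 49 in the large subunit set (MRPL symbols) and 29 in the small subunit set (MRPS symbols). The family's 79 pseudogene symbols were left out of the members, and 12 of them had any count. RNA was sequenced from 3 libraries: 1 control library that had received a scrambled hairpin by lentivirus (labelled KG1- NC) and 2 whose genotype label is UCP2 knockdown, made with the hairpins shUCP2#2 and shUCP2#3. All 3 lines were sorted for the virus after infection and grown in RPMI 1640 with 20% foetal bovine serum, and the study speaks of selected clones, so each library may be 1 clone. Nothing says that the libraries came from repeated cultures, so a p-value measures the spread between these samples alone, and with 1 control library an effect of the hairpins and a property of that library cannot be told apart. In this bulk RNA, fewer cells of a type and less RNA per cell cannot be told apart either.

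Mitochondria carry their own ribosome, built from 2 rRNAs transcribed from the mitochondrial genome and many proteins that are encoded in the nucleus, made in the cytosol and imported. It translates only the few core subunits of the respiratory chain and the ATP synthase that mitochondrial DNA encodes, and its members are therefore needed for oxidative phosphorylation. The large subunit joins amino acids and holds the exit tunnel, and the small subunit decodes the mRNA. Leukaemic myeloid cells are known to depend on mitochondrial translation. The hairpins target UCP2, which encodes a transport protein of mitochondria.

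The libraries held 18375090 counts (control), 16475165 counts (shUCP2#2) and 17562153 counts (shUCP2#3), at which 3 counts correspond to between 0.163 and 0.182 CPM (counts scaled to the library total). The transcript of UCP2 was not lower under its hairpins, with 651 counts in the control, 608 in shUCP2#2 and 649 in shUCP2#3, so directions below are those of the labels. The study itself reports a significant loss of UCP2 protein by immunoblot and of its transcript by qPCR with both hairpins. These counts do not show that loss for the transcript, and protein was not measured here. The cells were checked against marker lists: 9 of 12 erythroid genes were above 10 CPM in every library against 5 of 12 progenitor and myeloid genes. Those 5 were PTPRC (2885 counts in the control, 2792 in shUCP2#2 and 3334 in shUCP2#3), GATA2 (2439, 2444 and 2669), CD33 (725, 542 and 669), SPI1 and KIT. In contrast, CD38, MPO, HLA-DRA and HLA-DRB1 were at 0 throughout, and CD34 had 0, 10 and 0 counts. On the erythroid list, HBB had 8, 0 and 8. The absent markers and the erythroid genes go against the label of a myeloid line while the 5 present markers do not. The identity of the cells is therefore unsettled, and KG1 is used below as the label only. The summed erythroid level was 4142 CPM in the control, 3119 in shUCP2#2 and 3121 in shUCP2#3, and its part in what follows was not tested. The library shUCP2#2 also held 507 counts of COL1A1 and 806 of COL1A2, fibroblast collagens with at most 3 counts in the other libraries, so values are given for each hairpin library apart. Its part in the results was not tested beyond that.

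As a family, the mitochondrial ribosomal protein genes were lower in both shUCP2 libraries. Of the 49 large subunit members, 15 were called lower and 0 higher by edgeR's quasi-likelihood test (Benjamini-Hochberg adjusted p under 0.05 over 15232 genes), and of the 29 small subunit members 10 were lower and 0 higher. Among all tested genes, 6.11% were called lower and 6.25% higher, against 30.6% and 34.5% of the large and small members called lower. At an unadjusted p under 0.05 by edgeR, 24 large members were lower and 1 higher, and 14 small members were lower and 0 higher. Of all 15232 tested genes, 1718 were then lower and 1740 higher. All 78 members passed the filter on low counts.

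The falls were modest. The median log2 fold change was -0.26 for the large set (quartiles -0.44 and -0.13) and -0.28 for the small set (quartiles -0.38 and -0.10), which correspond to median levels of 0.832 and 0.825 times the control, beside a median of 0.02 (quartiles -0.25 and 0.31) over all tested genes. Both shUCP2 libraries lay below the control for 38 large members and 24 small members, 79.5% of all members. Of all tested genes 38.1% did so, and of those with a mean FPKM of at least 1, 42.1%. Both lay above it for 4 large and 3 small members, 8.97% of the family against 38.8% of tested genes, and the hairpins fell on opposite sides for 7 large and 2 small members, against 23.0% of tested genes. Since the 2 hairpin libraries are compared with the same control library, these shared signs are not independent of each other.

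**Figure D1:**
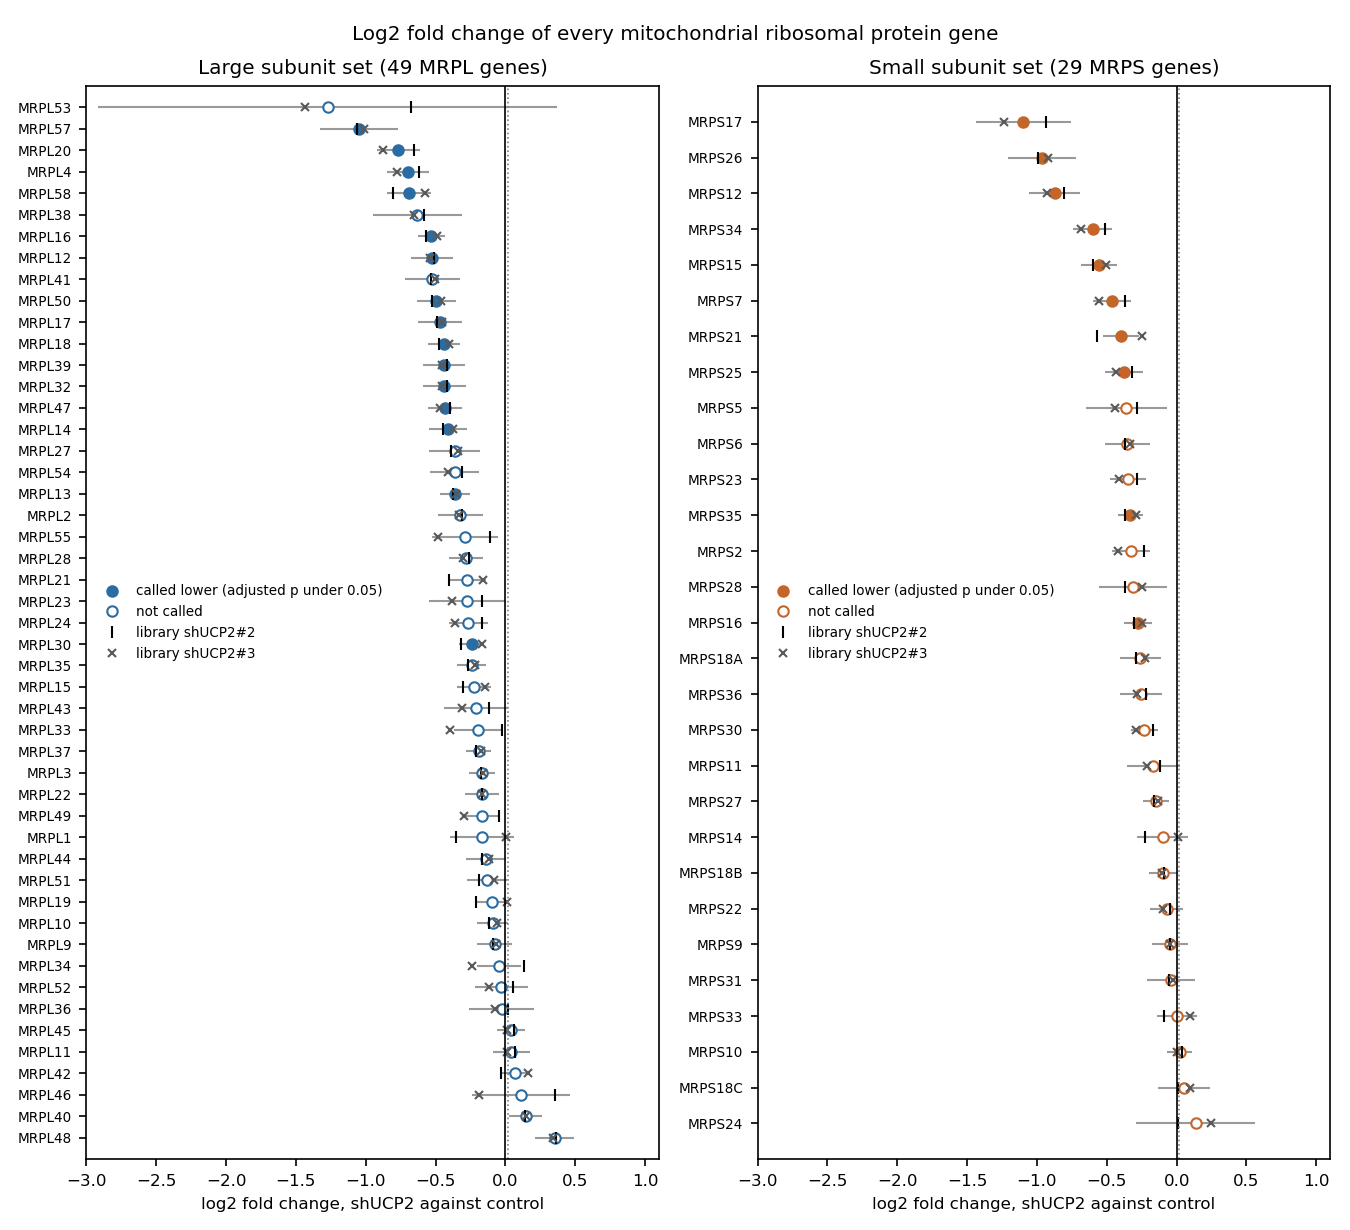
Log2 fold change, shUCP2 against control, of the 49 large subunit members (left) and the 29 small subunit members (right), ordered by value. Circles are the fitted value and bars its standard error, filled where called lower, ticks and crosses are the shUCP2#2 and shUCP2#3 libraries, and the dotted line is the median of all tested genes. Of the 78 fitted values, 68 lie below 0.

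The summed counts showed the same direction in each library. Large subunit members took 0.313% of the control library's counts (95% exact binomial interval 0.311 to 0.316), 0.264% of shUCP2#2 (0.262 to 0.267) and 0.271% of shUCP2#3 (0.269 to 0.274). Small subunit members took 0.198% (0.196 to 0.200), 0.168% (0.166 to 0.170) and 0.169% (0.167 to 0.171). These intervals cover counting error only, and neither hairpin library's interval overlaps that of the control. The proteins of the cytosolic ribosome, which translates nuclear mRNAs, took 13.1%, 13.2% and 12.7%, above the control in shUCP2#2 and below it in shUCP2#3. Their intervals were 13.08 to 13.11 (control), 13.18 to 13.21 (shUCP2#2) and 12.72 to 12.76 (shUCP2#3). Neither of these hairpin intervals overlaps that of the control either, so non-overlap at these depths is not particular to the members.

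The test behind these counts has 1 control library, and only the 2 shUCP2 libraries inform its spread. The fit gave a gene's own spread no weight (infinite prior degrees of freedom), so each standard error rests on genes of like abundance. When the spread was not modelled on abundance, or when limma was run on log2(FPKM + 1), 0 members of either set passed in either direction, as did 0 of all tested genes. At an unadjusted p under 0.05, 10 large and 5 small members were then lower without the abundance trend, and 21 and 13 in limma. Of the 15232 tested genes, 1770 and 2310 passed that threshold in either direction in these 2 settings. DESeq2 called 3 large and 3 small members lower and 0 higher.

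The large subunit member with the largest called fall was MRPL57, a small protein particular to the mitochondrial ribosome (chr13:21176658-21179084, GRCh38, as in the deposited table). It measured 13.6 CPM in the control, 6.47 in shUCP2#2 and 6.69 in shUCP2#3. Both hairpin libraries were thus close together and far below the control, and the log2 fold change was -1.05 (SE 0.28, adjusted p = 0.0033 by edgeR). MRPL20, whose bacterial counterpart binds rRNA early in subunit assembly, measured 42.1 CPM in the control, 26.7 in shUCP2#2 and 22.9 in shUCP2#3 (log2 fold change -0.77, SE 0.16). MRPL4, which lines the exit tunnel in the bacterial ribosome, measured 48.0, 31.2 and 28.0 CPM in the same order (-0.70, SE 0.15). In both genes the control stood above both hairpin libraries, and shUCP2#3 was the lower of the pair.

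MRPL58, also known as ICT1, is a peptidyl-tRNA hydrolase that forms part of the large subunit and releases chains from stalled ribosomes. Its level was 39.4 CPM in the control, 22.5 in shUCP2#2 and 26.4 in shUCP2#3 (log2 fold change -0.69, SE 0.16, edgeR adjusted p = 0.00040). MRPL16, a protein near the peptidyl transferase centre, was more abundant, at 162 CPM in the control, 109 in shUCP2#2 and 115 in shUCP2#3 (-0.53, SE 0.10). It had the lowest adjusted p of the family, 4.85e-06 by edgeR.

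The stalk of the large subunit recruits translation factors through MRPL12, which is held at the stalk base by MRPL10, and these partners did not move alike. MRPL12 measured 46.9 CPM in the control, 32.9 in shUCP2#2 and 32.3 in shUCP2#3 (log2 fold change -0.53, SE 0.15, edgeR adjusted p = 0.0061). Of the exonic bases of MRPL12, 68.2% lie in exons of another gene model on the same strand, AC139530.2 in GENCODE 29, so the counting could have set reads aside or split them there. MRPL10 measured 93.7, 86.3 and 89.6 CPM and was not called (-0.09, SE 0.11, edgeR adjusted p = 0.72). The difference between the 2 genes' changes was not tested.

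The remaining named falls of the large set were MRPL50 (log2 fold change -0.49, SE 0.14), a protein without a bacterial counterpart, MRPL17 (-0.47, SE 0.16), a neighbour of the exit tunnel, MRPL18 (-0.44, SE 0.11), which sits in the central protuberance, and MRPL39 (-0.44, SE 0.15), another mitochondrial addition. In each of these 4 genes, named because they were called lower, both hairpin libraries were below the control. MRPL18 measured 106 CPM in the control, 76.2 in shUCP2#2 and 80.2 in shUCP2#3. The other 5 called members, MRPL32, MRPL47, MRPL14, MRPL13 and MRPL30, had log2 fold changes between -0.44 and -0.24.

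In the small subunit, MRPS17 had the largest called fall (chr7:55951877-55956500). This rRNA-binding protein of the small subunit body measured 8.72 CPM in the control, 4.52 in shUCP2#2 and 3.63 in shUCP2#3 (log2 fold change -1.10, SE 0.34, edgeR adjusted p = 0.015). It is among the 3 least expressed small members, and 27.0% of its exonic bases are shared with other gene models of the same strand, NIPSNAP2 among them. MRPS26, found only in the mitochondrial ribosome, measured 18.1 CPM in the control, 9.03 in shUCP2#2 and 9.53 in shUCP2#3, about as far below the control in the first hairpin library as in the second (-0.96, SE 0.24, edgeR adjusted p = 0.0017).

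MRPS12 is the protein of the decoding centre whose bacterial counterpart governs the accuracy of codon reading. It measured 30.4 CPM in the control, 17.3 in shUCP2#2 and 15.9 in shUCP2#3 (log2 fold change -0.87, SE 0.18, edgeR adjusted p = 6.0e-05). MRPS34, without a bacterial counterpart and known from inherited mitochondrial disease, measured 59.6, 41.7 and 37.0 CPM (-0.60, SE 0.14), and MRPS15, a protein of the subunit body that binds rRNA, measured 74.2, 48.9 and 52.1 CPM (-0.55, SE 0.13). MRPS7, which organises the subunit head, fell by 0.46 on the log2 scale (SE 0.14). In all 4 genes both hairpin libraries lay below the 1 control library, as they did for 38.1% of all tested genes. These genes were named because they were called lower, so that side follows largely from the choice.

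MRPS21 differed most between the hairpins among the called small members, at 73.6 CPM in the control, 49.6 in shUCP2#2 and 62.0 in shUCP2#3 (log2 fold change -0.40, SE 0.13). Without shUCP2#2 its change was -0.25, so the size of its fall rests partly on that library. MRPS25 (-0.38, SE 0.14), MRPS35 (-0.33, SE 0.09) and MRPS16 (-0.28, SE 0.10) complete the called small members. MRPS35 also had the highest mean level per length of the small set, at 109 FPKM (counts per kilobase of exon, scaled to the library total) in the control, 84.2 in shUCP2#2 and 89.9 in shUCP2#3, though in shUCP2#2 MRPS10 was higher, at 91.1 FPKM.

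**Figure D2:**
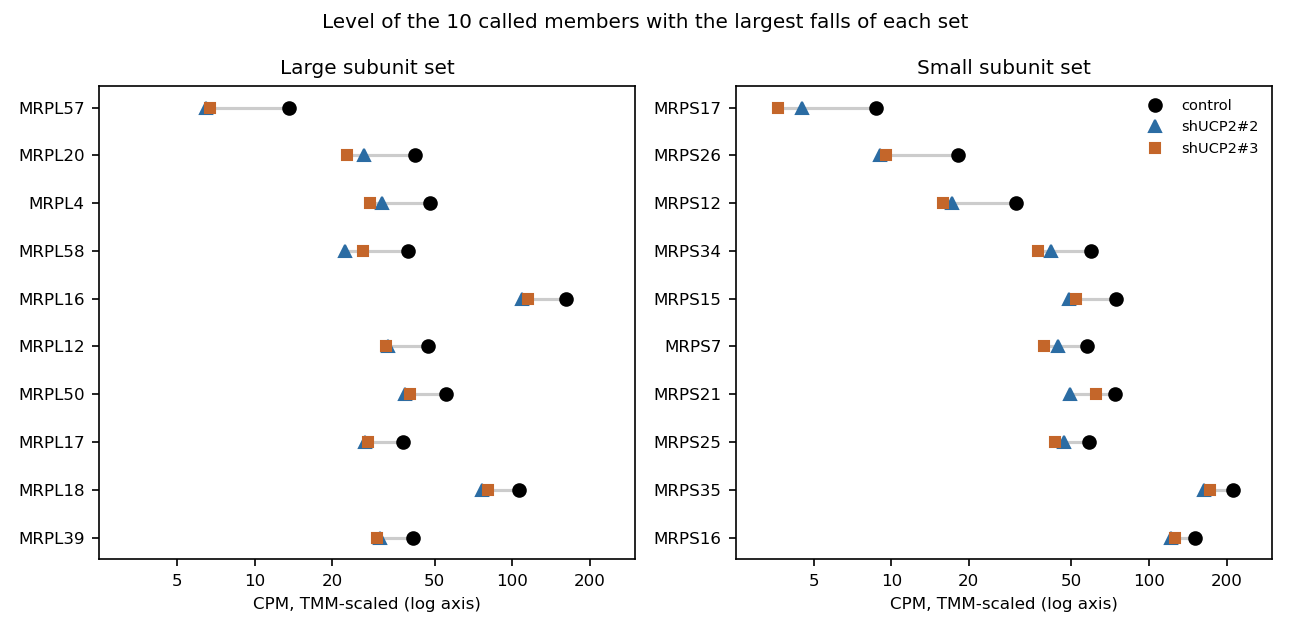
Level in CPM (log axis) of the 10 called members with the largest falls of each set in the control library (circle) and in shUCP2#2 (triangle) and shUCP2#3 (square), 1 library each and so with no error bar. In all 20 genes both hairpin points lie to the left of the control point, as in 38.1% of all tested genes. The 20 were chosen because they were called lower.

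Members whose symbol misplaces them, or whose paralogues divide a role, showed no called change. MRPS30 and MRPS18A belong to the large subunit in the mammalian structure in spite of their names, and their log2 fold changes were -0.23 (SE 0.09, edgeR adjusted p = 0.096) and -0.26 (SE 0.15, adjusted p = 0.28). The other members related to the same bacterial protein, MRPS18B and MRPS18C, had changes of -0.10 (SE 0.10) and 0.05 (SE 0.19). MRPS36, which is now known as a component of the 2-oxoglutarate dehydrogenase complex rather than of the ribosome, stood at 41.1 CPM in the control, 35.3 in shUCP2#2 and 33.7 in shUCP2#3 (-0.25, SE 0.15, adjusted p = 0.32). Exons of MRPS18A overlap RSPH9 on the opposite strand over 47.0% of its length.

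Few members were higher. MRPL48, named because its fitted value was the highest, a choice made after its values were seen, measured 40.9 CPM in the control, 52.5 in shUCP2#2 and 51.9 in shUCP2#3. Both hairpin libraries were above the control, but the gene did not pass the adjusted threshold (log2 fold change 0.35, SE 0.14, edgeR adjusted p = 0.089), and it was the 1 member higher at an unadjusted p under 0.05. MRPS24 was the highest of the small set, at 69 counts in the control, 62 in shUCP2#2 and 79 in shUCP2#3 (0.14, SE 0.43).

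The hairpins disagreed in sign most in MRPL46, which measured 5.45 CPM in the control, 7.02 in shUCP2#2 and 4.76 in shUCP2#3. MRPL34 (log2 fold changes of 0.14 and -0.24 in shUCP2#2 and shUCP2#3) and MRPL1 of the mobile rRNA stalk (-0.36 and 0.00) followed, and in the small set MRPS14 (-0.23 and 0.01) and MRPS33 (-0.09 and 0.10). Over the large set the median difference between a member's hairpin values was 0.07 and over the small set 0.10. It was 0.18 over all tested genes and 0.13 over those with a mean FPKM of at least 1. The members' differences were smaller than the median falls. Both hairpin values use the same control, so a deviation of that library is absent from the difference but present in the falls. Each hairpin alone gave a median of -0.26 (shUCP2#2) and -0.31 (shUCP2#3) for the large set and of -0.28 and -0.25 for the small set.

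**Figure D3:**
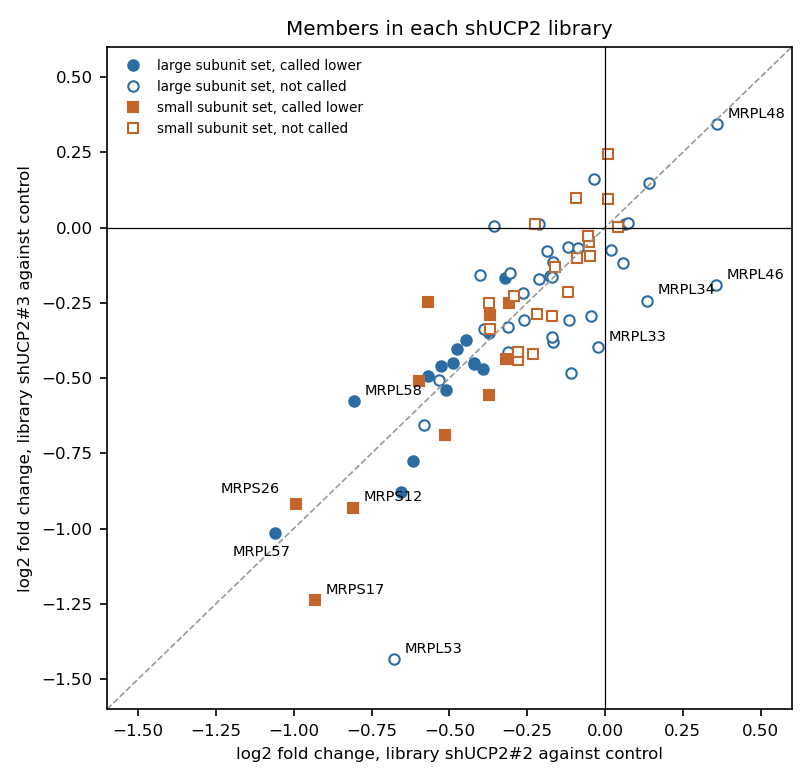
Log2 fold change of every member in the library shUCP2#2 (horizontal) and shUCP2#3 (vertical), each against the same control library, with circles for the large and squares for the small set, filled where called lower. The dashed line marks equal values. Of the 78 members, 62 lie in the lower left quadrant and 7 in the upper right.

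Levels per length spread widely within the family. In the control the large members ran from 0.85 FPKM (MRPL46) to 95.4 FPKM (MRPL37), with a median of 22.2, and the small members from 0.73 FPKM (MRPS5) to 109 FPKM (MRPS35), with a median of 17.2. MRPL37, MRPL45, which tethers the ribosome to the inner membrane, and MRPL18 had the highest mean FPKM of the large set, and MRPS35, MRPS10 and MRPS18B of the small set. Of these 6, MRPL18 and MRPS35 were called lower, with the log2 fold changes given above, and MRPL37 (-0.19, SE 0.09), MRPL45 (0.04, SE 0.10), MRPS10 (0.02, SE 0.09) and MRPS18B were not called. At the low end, MRPL53 had 12 counts in the control, 6 in shUCP2#2 and 3 in shUCP2#3, and its fitted value of -1.27 has an SE of 1.64. MRPL38, with 162, 96 and 98 counts (-0.63, SE 0.32), and MRPS5, with 184, 135 and 130 counts (-0.36, SE 0.29), were not called either. The exon lengths behind FPKM join all annotated transcripts and reach 19524 bases for MRPS27, which lowers the FPKM of such genes.

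Across members, described with no test since genes are not replicates, the log2 fold change hardly followed the mean FPKM (Spearman's rho 0.08 over the 49 large members and -0.04 over the 29 small ones). It was lower in small members of higher transcript GC content (rho -0.50) and less so in large members (-0.15), where the rho over all tested genes with a transcript was -0.21. When each gene was set against the median of tested genes in its own bin of GC content (10 bins of equal size), an alternative chosen after seeing the data, the small set's median was -0.32. Members numbered within the bacterial range (up to 36 in the large and 21 in the small set), most of which have a bacterial counterpart, were called lower in 10 of 28 large and 6 of 16 small genes, with medians of -0.27 and -0.30. Those numbered beyond it, most of which arose in mitochondria, were called lower in 5 of 21 large and 4 of 13 small genes, with medians of -0.21 and -0.25. Over all tested genes, 6.11% were called lower.

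Many members share exons or a start region with another gene, and the counts were compared on that ground. At least 10% of the exonic bases overlap exons of another gene in 15 large and 11 small members. Members under that limit had medians of -0.27 (34 large genes, 11 called lower) and -0.24 (18 small genes, 5 called lower). The members over it had medians of -0.21 (4 large genes called lower) and -0.31 (5 small genes called lower). In both sets, members under 10% overlap included called falls, where 6.11% of all tested genes were called lower. Overlap was taken from GENCODE 29, in which 28 of 78 members have the same coordinates as in the deposited table. A member under the limit may therefore overlap more in the models that were counted. The part of overlap in the falls was not tested.

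Next, 33 members have a gene on the opposite strand that starts within 1000 bases of their own start, so that both starts lie in the same stretch of DNA. Of the 26 such neighbours that were tested and are no members, 2 were called lower (TCP1 and APBA3) and 1 higher (PPP1R10). Over all tested genes, 6.11% were called lower and 6.25% higher. The neighbours' median log2 fold change was -0.03 while their partners in the family had a median of -0.28. The member was the lower of the pair in 20 of 26 pairs. Among the 12 pairs whose member was called lower, the neighbour was called lower in 1, TCP1 beside MRPL18. The medians in these pairs were 0.03 for neighbours and -0.44 for members. Because the pairs were picked by the member's call, the low median of the members follows from that choice. Some neighbours had few counts for a call, such as PSMA2 beside MRPL32 (20 in the control, 18 in shUCP2#2 and 15 in shUCP2#3). SKA3, which starts 106 bases from MRPL57, had 666 counts in the control, 563 in shUCP2#2 and 716 in shUCP2#3 (log2 fold change 0.05, SE 0.15). SARS2, the mitochondrial seryl-tRNA synthetase that starts 181 bases from MRPS12, had 128, 90 and 116 counts (-0.21, SE 0.33), and NDUFB5, a subunit of respiratory complex I beside MRPL47, had 3193, 3011 and 3240 counts (0.08, SE 0.09). The differences within pairs were not tested.

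**Figure D4:**
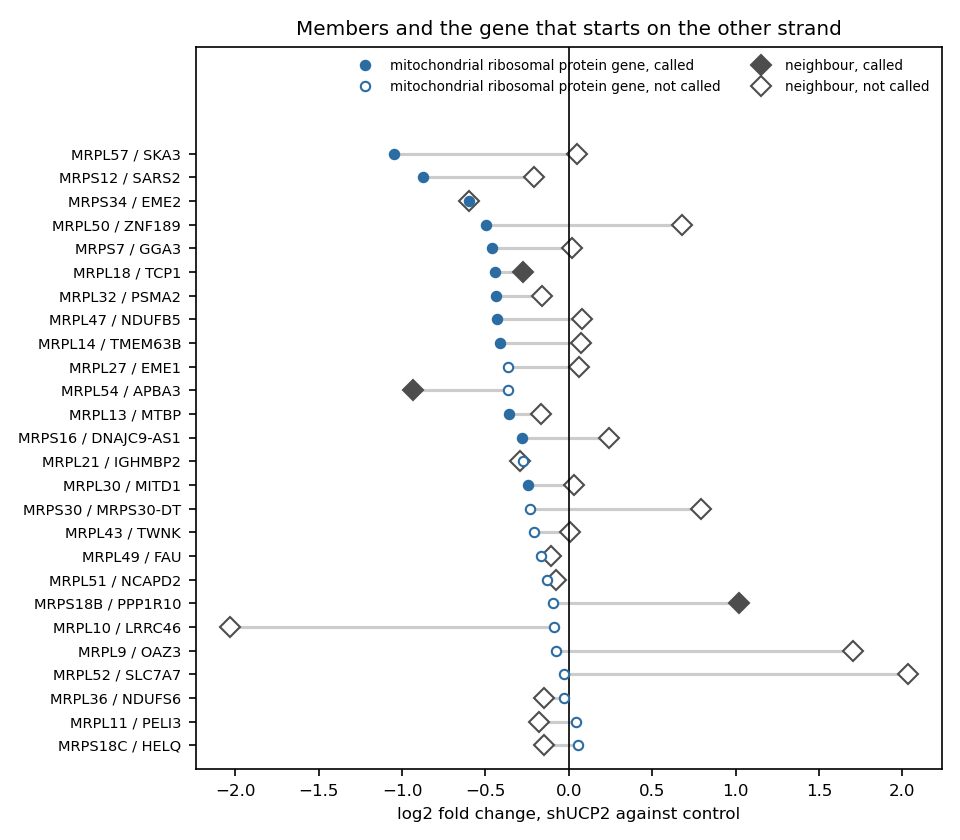
Log2 fold change of 26 members (circles) and of the gene that starts nearby on the opposite strand (diamonds), ordered by the member's value, filled where called, with standard errors left out. Values of neighbours at both ends of the axis rest on few counts (LRRC46 had 22, 0 and 10). In 20 of the 26 pairs the member lies to the left of its neighbour.

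Promoters are shown because so many members moved the same way. RefSeq sequences of the GRCh38.p14 build, from 250 bases before to 50 bases after the start, were at hand for 42 large and 27 small members, and those of the lowest called members, of MRPS12 with its neighbour SARS2, and of MRPL48 at the other end of the family are given below, 5′ to 3′ on the strand of the gene. Capitals mark every match on either strand to CCGGAAG (the core bound by ETS factors such as GABPA), GCGCA and GCGC with any base between them (NRF1), AAGATGGC (YY1), GGGCGG (SP1 and its kin), CCAAT (NF-Y) and CACGTG (the E-box).
MRPL57, chr13:21176408-21176707, plus strand: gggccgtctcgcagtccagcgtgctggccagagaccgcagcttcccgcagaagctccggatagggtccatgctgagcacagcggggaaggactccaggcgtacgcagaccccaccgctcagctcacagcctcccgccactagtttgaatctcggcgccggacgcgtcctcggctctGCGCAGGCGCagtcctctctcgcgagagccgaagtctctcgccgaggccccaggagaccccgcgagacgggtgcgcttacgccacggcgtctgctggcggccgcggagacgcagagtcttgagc
MRPL20, chr1:1407244-1407543, minus strand: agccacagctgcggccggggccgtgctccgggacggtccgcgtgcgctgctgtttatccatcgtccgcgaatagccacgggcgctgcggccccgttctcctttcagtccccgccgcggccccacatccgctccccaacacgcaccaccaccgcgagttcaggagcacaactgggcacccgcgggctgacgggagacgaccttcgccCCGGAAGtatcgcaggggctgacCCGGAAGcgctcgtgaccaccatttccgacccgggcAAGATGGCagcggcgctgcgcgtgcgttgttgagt
MRPS17, chr7:55951627-55951926, plus strand: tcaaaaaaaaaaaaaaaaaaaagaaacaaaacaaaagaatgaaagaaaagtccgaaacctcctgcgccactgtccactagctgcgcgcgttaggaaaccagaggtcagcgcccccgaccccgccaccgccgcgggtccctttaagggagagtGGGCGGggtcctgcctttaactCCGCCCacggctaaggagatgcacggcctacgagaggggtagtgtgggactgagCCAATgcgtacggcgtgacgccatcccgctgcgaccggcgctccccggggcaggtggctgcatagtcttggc
MRPS26, chr20:3045802-3046101, plus strand: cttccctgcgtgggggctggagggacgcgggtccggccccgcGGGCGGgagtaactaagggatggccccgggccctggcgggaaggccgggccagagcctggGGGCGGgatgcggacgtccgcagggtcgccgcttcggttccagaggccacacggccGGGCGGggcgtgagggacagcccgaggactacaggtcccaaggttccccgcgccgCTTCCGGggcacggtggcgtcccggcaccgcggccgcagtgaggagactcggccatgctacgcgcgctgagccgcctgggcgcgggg
MRPS12, chr19:38930694-38930993, plus strand: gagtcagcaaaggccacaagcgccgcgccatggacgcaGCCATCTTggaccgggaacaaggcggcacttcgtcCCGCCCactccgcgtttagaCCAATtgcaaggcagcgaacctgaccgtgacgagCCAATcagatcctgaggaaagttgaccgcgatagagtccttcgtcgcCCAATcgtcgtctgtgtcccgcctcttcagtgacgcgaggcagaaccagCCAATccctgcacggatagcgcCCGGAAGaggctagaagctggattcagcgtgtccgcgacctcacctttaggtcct
MRPL48, chr11:73787624-73787923, plus strand: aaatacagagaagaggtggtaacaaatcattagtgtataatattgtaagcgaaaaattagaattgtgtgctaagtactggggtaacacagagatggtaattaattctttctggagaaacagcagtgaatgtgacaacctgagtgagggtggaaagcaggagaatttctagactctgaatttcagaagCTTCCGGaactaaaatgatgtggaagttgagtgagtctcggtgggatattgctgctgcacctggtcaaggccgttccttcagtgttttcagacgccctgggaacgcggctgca

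The promoters of the family held more matches to ETS and YY1 letters than promoters at large. The ETS core was found in 40.5% of large and 44.4% of small members against 10.3% of the 35116 promoters in the table, and the YY1 letters in 28.6% and 29.6% against 2.89%. The NRF1 letters were in 14.3% and 7.41% against 5.78%, GGGCGG in 54.8% and 70.4% against 45.0%, CCAAT in 26.2% and 33.3% against 34.6%, and CACGTG in 11.9% and 3.70% against 7.26%. Within the family, the ETS core was in 10 of 24 members called lower and in 19 of 45 not called. In the same order, the YY1 letters were in 6 and 14, CCAAT in 10 and 10, and GGGCGG in 17 and 25. The NRF1 letters were in 4 and 4, and CACGTG in 0 and 6. Of the sequences printed, MRPL20 holds the ETS core in 2 places, MRPL57 holds only the NRF1 letters, and MRPL48, which was not lower, also holds an ETS core. A match is a run of letters and no measure of binding, and none was tested.

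The other genes of mitochondrial translation came from lists of known function. Of 6 further proteins found on the mitochondrial ribosome under other names, 3 were called lower: AURKAIP1 (log2 fold change -0.65, SE 0.15), GADD45GIP1 (-0.51, SE 0.17) and PTCD3 (-0.40, SE 0.09). None was called higher, and over all tested genes 6.11% were called lower and 6.25% higher. The median of the 6 was -0.38. DAP3, a GTP-binding protein of the small subunit, was level at 328 CPM in the control, 328 in shUCP2#2 and 326 in shUCP2#3.

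Of 26 assembly factors and rRNA modifying enzymes, 25 were tested, with a median of -0.27. Of the 25, 4 were lower (16%) and 1 higher (4%), beside 6.11% and 6.25% of all tested genes. The lower ones were MPV17L2 (-0.84, SE 0.30), MALSU1, which keeps the subunits apart during assembly (-0.81, SE 0.26), the pseudouridine synthase TRUB2 (-0.62, SE 0.14) and RCC1L (-0.42, SE 0.14). GTPBP10, a GTPase of large subunit assembly, was higher, at 49.8 CPM in the control, 62.7 in shUCP2#2 and 72.7 in shUCP2#3 (0.44, SE 0.13). Of 18 translation factors and mRNA-handling proteins, 4 were lower and 0 higher, with a median of -0.29, and 0 were higher at an unadjusted p under 0.05. The 4 lower ones were SLIRP, which stabilises mitochondrial mRNA (-0.67, SE 0.19), the elongation factors TUFM (-0.49, SE 0.09) and GFM1 (-0.38, SE 0.10), and the recycling factor GFM2 (-0.47, SE 0.10). TUFM measured 325 CPM in the control, 243 in shUCP2#2 and 219 in shUCP2#3, so both hairpin libraries were well below the control.

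The cytosolic ribosomal proteins differed from the mitochondrial ones in their counts: 2 of 77 were lower (RPS26 at -0.39, SE 0.09, and RPS2 at -0.15, SE 0.05) and 0 higher, with a median of -0.01. The 2 called lower are 2.60% of the list, beside 6.11% of all tested genes. At an unadjusted p under 0.05, 1 of them was higher. Of the 77 genes, 21 were below the control in both hairpin libraries, 17 above and 39 on opposite sides.

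**Figure D5:**
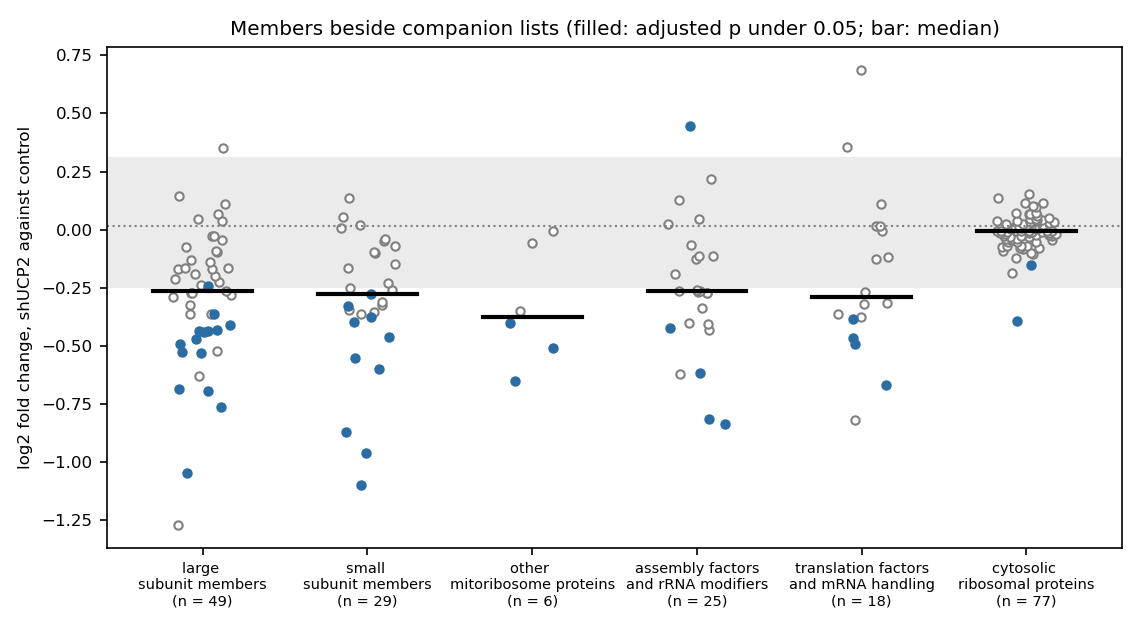
Log2 fold change, shUCP2 against control, of each tested gene (points, filled where called in either direction) of the large and small subunit sets and of the companion lists, with the list median as a bar. The dotted line and grey band are the median and quartiles of all tested genes. The medians are -0.26 and -0.28 for the 2 sets, -0.38, -0.27 and -0.29 for the other lists of mitochondrial translation, and -0.01 for the cytosolic ribosome.

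The rRNAs that these proteins bind differed in direction between the hairpin libraries. MT-RNR1, the rRNA of the small subunit, measured 512 CPM in the control, 1473 in shUCP2#2 and 457 in shUCP2#3, and MT-RNR2, that of the large subunit, 6717, 9248 and 5436 CPM. Both were above the control in shUCP2#2 and below it in shUCP2#3, with log2 fold changes of 1.52 and -0.16 for MT-RNR1 and 0.46 and -0.31 for MT-RNR2. The edgeR fit called both higher (0.91, SE 0.08, and 0.13, SE 0.04), and without shUCP2#2 the direction turned. Of the 16 tested genes of the mitochondrial genome, 14 lay on opposite sides of the control in the 2 hairpin libraries, with medians of 0.42 in shUCP2#2 and -0.26 in shUCP2#3. The nuclear-encoded members, by contrast with these values, lay on opposite sides in 9 of 78 genes.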

How the data were processed

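RNA of 3 libraries of cells labelled KG1 was measured, 1 control and 2 labelled shUCP2. Per the labels, the authors trimmed reads with cutadapt 1.9.1, aligned them to GRCh38 with HISAT2 2.2.1 and counted reads per gene with HTSeq 0.6.1, and Cufflinks 2.2.1, SAMtools 0.1.19 and DESeq2 are also named. Whether counting used strand, and with which annotation release, is not given in the sources used here. Overlapping genes of opposite strands may therefore share reads. The labels' extraction text describes DNA although the molecule is total RNA.

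The deposited table holds raw counts for 61806 genes and FPKM, which the authors' values show to be counts per kilobase of exon scaled to the library total (all 61806 rows within 0.01 in each library). Genes kept by filterByExpr were tested with edgeR 4.0.16 (R 4.3.3): TMM scaling, a quasi-likelihood test of control against shUCP2 (n = 2, 1 residual degree of freedom), two-sided, with Benjamini-Hochberg adjustment at 0.05 over 15232 genes. The standard error is the log2 fold change divided by the root of F. CPM are TMM-scaled, and values of 1 hairpin library come from log2 CPM with a prior count of 2. On simulated data with the real means, the fit recovered 34.0% of 1.5-fold falls, 37.7% of 1.5-fold rises and 61.9% of 2-fold rises among 15232 genes, and larger falls were not simulated. FPKM served for levels and for limma 3.58.1, and DESeq2 1.42.0 was an alternative. Overlaps came from GENCODE 29 (78 members matched by ID, 28 with the same coordinates). Neighbours came from the gene coordinates and strands of the deposited table. Promoters came from RefSeq for 69 of 78 members.

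Text names, per set, up to 10 called members per direction with the largest changes, the 3 highest and 3 lowest by mean FPKM, up to 3 with hairpins on opposite sides, genes of known role, and up to 4 called genes per direction of each companion list. The members, lists and naming rule were chosen with earlier results of these data known, as were the numbering classes, neighbours and motifs.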

Additional observations from a re-analysis of the deposited data

How the results depend on the processing

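Directions were steadier than calls. The 20 named called members kept their direction under other scalings (RLE, upper quartile, library totals), without the filter, with a mean FPKM of at least 1, without the abundance trend, under DESeq2 and under limma, and of them 20, 17, 18, 16, 20, 0, 6 and 0 stayed called. Members called lower were 15 large and 10 small. They became 0 and 0 in edgeR without the abundance trend (10 and 5 at an unadjusted p under 0.05) and in limma on log2(FPKM + 1), + 0.1 or + 5 (21 and 13, 21 and 12, 23 and 12), settings that called 0 of all tested genes (1770 without the trend and 2264 to 2370 in limma at an unadjusted p under 0.05), and 3 and 3 under DESeq2 (12 and 8), which gave an adjusted p to 40 of 49 and 24 of 29 members and called 296 genes lower and 327 higher. Without members that have at least 10% exonic overlap, chosen after seeing the data, 11 large and 5 small were lower, in part because fewer members were left. The cause of the other changes was not tested. No setting called a member higher: 0 in each, with 1 large and 0 small members higher at an unadjusted p under 0.05, and 0 and 0 without the abundance trend and under DESeq2.

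The median of the large set, -0.26, was -0.19 in limma on log2(FPKM + 5). That of the small set, -0.28, was -0.25 with upper quartile factors and in limma on log2(FPKM + 1), -0.19 with + 5, -0.32 centred on GC content and -0.24 without overlapping members. Leaving out either shUCP2 library gave -0.31 to -0.26 for the large and -0.28 to -0.25 for the small set. Leaving out shUCP2#2 turned MT-RNR1 (1.52 without shUCP2#3) to -0.16 and MT-RNR2 (0.46 without shUCP2#3) to -0.31. These values compare 1 library with 1 and have no test, and the single control could not be left out. Genes with few counts, such as MRPL53, have standard errors too wide for a call. No paired analysis was possible because there is 1 control library, and the titles give hairpin numbers but no replicate numbers.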
